A study of Mus musculus with 6 samples.

Results

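Expression of 10 genes of the primitive and visceral endoderm was followed in mouse day 2 epiblast-like cells (EpiLCs) with and without functional Smad2 and Smad3. The genes were chosen by symbol, namely Gata4, Gata6, Sox17, Sox7, Pdgfra, Dab2, Hnf4a, Amn, Cubn and Apoe, and all 10 were found among the 24288 gene symbols of the expression table. Where a symbol had several transcript entries, the entry with the highest total was used. EpiLCs are cultured counterparts of the early post-implantation epiblast. They were made from embryonic stem cells (ESCs) that had been kept in 2i medium with LIF and were then grown for 48 hours on fibronectin in N2B27 with 20 ng/ml activin A, 12 ng/ml Fgf2 and 1% KSR, a serum replacement. The wild-type (WT) cells were of the CCE line. The double knockout (DKO) cells were clone KT15.1F6, derived from Smad2-/- ESCs (tm1Rob allele) by removing Smad3 exon 1 with a Cas9 nickase. Both are of the 129/Sv//Ev strain, both received activin A, and each genotype had 3 libraries from independent differentiations (n = 3 throughout). Since each genotype is 1 line, effects of the knockout and of the clone cannot be told apart.

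The primitive endoderm is the layer of the blastocyst that covers the epiblast and gives rise to visceral and parietal endoderm. Gata6 acts early in its specification, Pdgfra is among its first surface receptors, and Gata4, Sox17 and Sox7 are further transcription factors of the lineage. The visceral endoderm, which surrounds the epiblast after implantation, takes up maternal proteins through the receptor cubilin and its partners, adapts them with Dab2, and makes apolipoproteins under regulators that include Hnf4a. None of these genes defines the epiblast, the cell type named on the labels.

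Values are normalized reads, that is, reads over the whole gene body divided by 1 size factor per library. The smallest step of a library, taken as 1 read, was worth 0.518 to 0.569 of them. Reads counted over gene bodies, summed with 1 entry per gene, were 57644143 to 63046034 per library. Smad3 fell from 839 ± 37.0 to 23.6 ± 6.16 normalized reads (mean ± SD), while Smad2 was at 4520 ± 86.3 in WT and 5062 ± 109 in DKO, so that reads over its whole gene body do not check the label. Pou5f1 and Dnmt3b, both expressed in the epiblast, stood at 4594 and 1839 normalized reads per kb of gene body in WT and at 4366 and 1709 in DKO. Other epiblast genes did change. Of 7 such genes, all tested, 1 was called higher and 2 lower by the thresholds below. Sox2 rose from 2798 to 7741 normalized reads, while Fgf5 fell from 3235 to 798 and Pou3f1 from 6064 to 3948. Calls of higher or lower needed a limma adjusted p below 0.05 together with a change of more than 1.5-fold. Log2 fold changes are DKO against WT on the log2(value + 1) scale, given ± SE.

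Pdgfra, Hnf4a, Gata6 and Cubn were higher in DKO EpiLCs, and no member was called lower. The folds were 3.73 for Hnf4a, 2.27 for Gata6, 2.24 for Pdgfra and 1.89 for Cubn. Of the 10 genes, 9 were tested and Sox7 had too few reads, so the calls were 4 higher, 0 lower and 5 not called. Over all tested transcript entries, 7.41% were called higher and 7.98% lower. Hnf4a reached 10 reads in only 2 of the 3 WT libraries and passed the filter on low values through its DKO libraries. The median log2 fold change of the 9 tested genes was 0.55, beside 0.00067 over all tested entries. Without the fold-change threshold 6 of the 9 passed, against 55.1% of all entries, so that count lay close to the background. The values of the WT and DKO libraries did not overlap for 7 of the 10 genes, 6 of them with higher DKO values. Over all tested genes, Sox7 not among them, non-overlap in either direction was seen for 59.0%. In a test against a fold change of 1.5, Hnf4a and Pdgfra passed (limma adjusted p = 0.0105 and 0.00833), Gata6 and Cubn did not (0.154 and 0.106), and 3.30% of all entries were higher by that test.

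**Figure D1:**
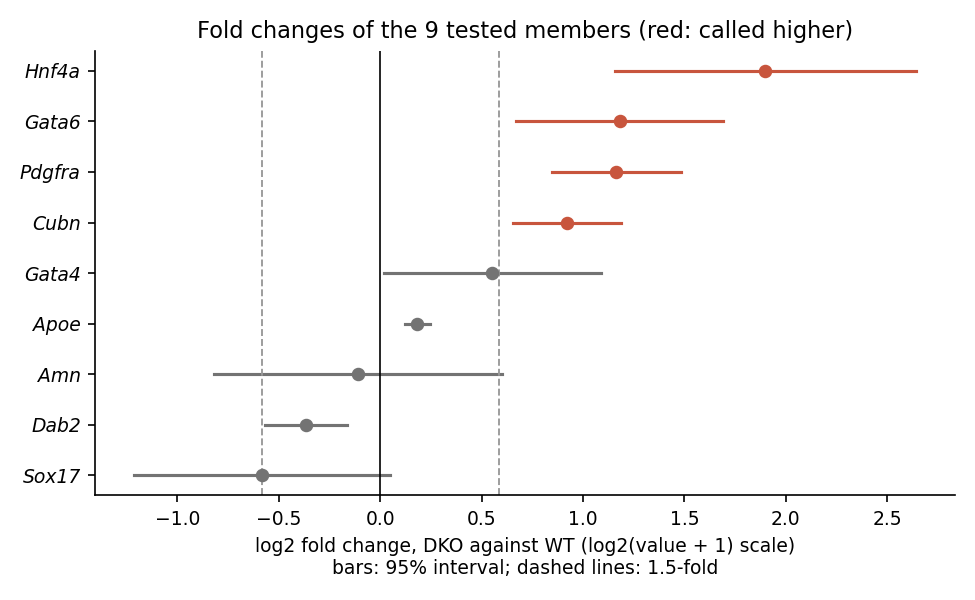
Log2 fold change of each tested gene (DKO against WT, log2(value + 1) scale, limma) with its 95% interval, and the fold-change threshold of 1.5 as dashed lines. Hnf4a, Gata6, Pdgfra and Cubn lie at 0.92 or above. Their intervals exclude 0, as do those of Gata4, Apoe and Dab2, which were not called. Sox17, Dab2 and Amn lie below 0, and Sox7 was not tested.

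By gene-body length, all members except Apoe lay below the median gene. Per kb of gene body, the 9 others ranged from 0.210 (Hnf4a) to 2.89 (Amn) normalized reads in WT and from 0.591 (Gata4) to 2.78 (Amn) in DKO, whereas the median gene was at 11.0 in WT and 11.1 in DKO. Apoe reached 1709 per kb in WT and 1941 in DKO, at the 98.0 and 98.2 percentiles of genes with reads. Among the genes called higher, Hnf4a was at the 17.2 percentile in WT and the 27.3 percentile in DKO, Gata6 at 21.9 and 28.9, Pdgfra at 27.1 and 33.4, and Cubn at 21.6 and 26.8. They thus remained in the lower part of that distribution in DKO. Per kb of exon instead, the 9 genes ranged from 0.776 (Sox7) to 52.2 (Dab2) normalized reads in WT and from 1.70 to 40.5 (the same genes) in DKO, so their order depends on the length used. Summed over the 9 genes without Apoe, normalized reads were 391, 383 and 408 in the WT libraries and 498, 492 and 562 in the DKO libraries. In bulk RNA, a change in the number of cells that express a gene and a change in RNA per cell cannot be told apart.

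**Figure D2:**
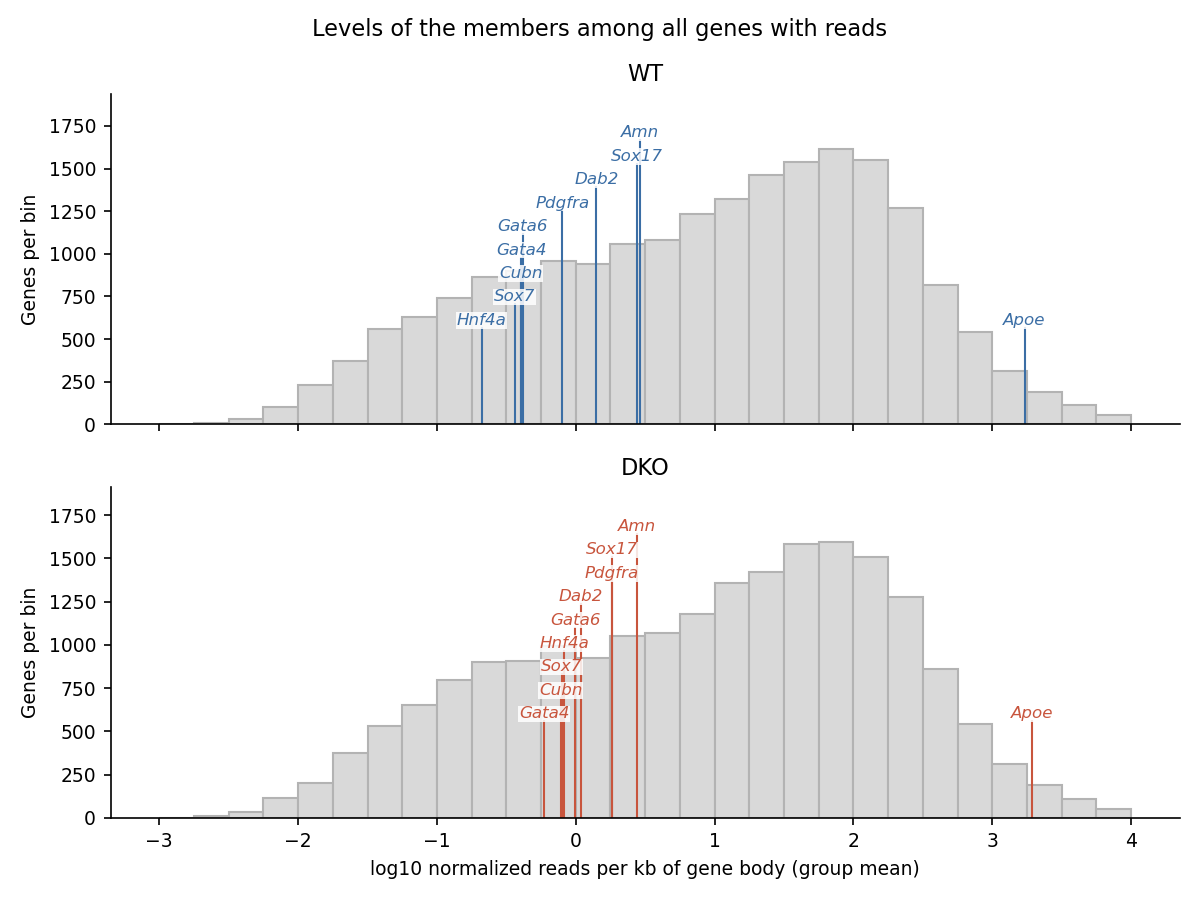
Histogram of the group mean level of all genes with reads, in log10 normalized reads per kb of gene body, for WT (top) and DKO (bottom), with each of the 10 genes as a vertical line. Apoe sits in the upper tail in both genotypes and the 9 others sit below the median gene.

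Gata6, a zinc-finger factor required for primitive endoderm (NM_010258, chromosome 18, 11052470 to 11085635, plus strand, mm10), had 15.0, 11.4 and 14.9 normalized reads in the WT libraries and 37.7, 24.2 and 36.8 in the DKO libraries. These values stand for 28, 20 and 28 reads in WT and 70, 46 and 71 in DKO. Every DKO library was above every WT library, and the lowest DKO value was 1.61 times the highest WT value. The log2 fold change was 1.18 ± 0.25 (95% interval 0.67 to 1.69, limma adjusted p = 0.000218). It was called in all 6 fits that each left out 1 library.

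Gata4, its relative that follows it in the lineage (NM_008092, chromosome 14, 63198922 to 63245248, minus strand), had 11.8, 23.3 and 21.3 normalized reads in WT and 24.2, 24.2 and 33.7 in DKO. The groups touched without overlapping, with the lowest DKO value 1.04 times the highest WT value. Its log2 fold change of 0.55 ± 0.26 did not pass the test (95% interval 0.02 to 1.09, limma adjusted p = 0.0735). Leaving out 1 library gave 0.27 without WT library 1 (limma adjusted p = 0.403) to 0.73 without WT library 2 (0.038), the only one of the 6 fits that called it.

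Neither SoxF factor was called. Sox17, needed for endoderm differentiation (NM_001289465, chromosome 1, 4491390 to 4497354, minus strand), had 14.0, 15.9 and 19.2 normalized reads in WT and 7.53, 14.7 and 10.4 in DKO. DKO library 2 lay within the WT range and the other DKO libraries below it. This was a log2 fold change of -0.58 ± 0.31 (95% interval -1.21 to 0.05, limma adjusted p = 0.109). It was -0.37 without DKO library 1 (limma adjusted p = 0.359) and -0.81 without DKO library 2 (0.0495). Sox7 (NM_011446, chromosome 14, 63943673 to 63950732, plus strand) had 0, 3.41 and 4.27 normalized reads in WT and 3.23, 7.36 and 6.22 in DKO. These are 0 to 14 reads per library, the groups overlapped, and the gene was not tested. In a fit without the filter on low values its log2 fold change was 1.15 (limma adjusted p = 0.0859). Where it was tested with 1 library left out, it ranged from 0.40 without WT library 1 (0.5534) to 1.59 without WT library 3 (0.0396).

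Hnf4a, a nuclear receptor that directs the secretory programme of the visceral endoderm (NM_008261, chromosome 2, 163547188 to 163572905, plus strand), had 6.45, 2.28 and 7.47 normalized reads in WT and 21.5, 25.2 and 17.1 in DKO. These values stand for 12, 4 and 14 reads in WT and 40, 48 and 33 in DKO. All DKO libraries were above all WT libraries, and the lowest DKO value was 2.29 times the highest WT value. Its log2 fold change of 1.90 ± 0.36 (95% interval 1.16 to 2.64, limma adjusted p = 6.13e-05) was the largest among the tested members. It ranged from 1.03 with a pseudocount of 10 to 2.16 over the alternatives and was called in each of the 17.

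**Figure D3:**
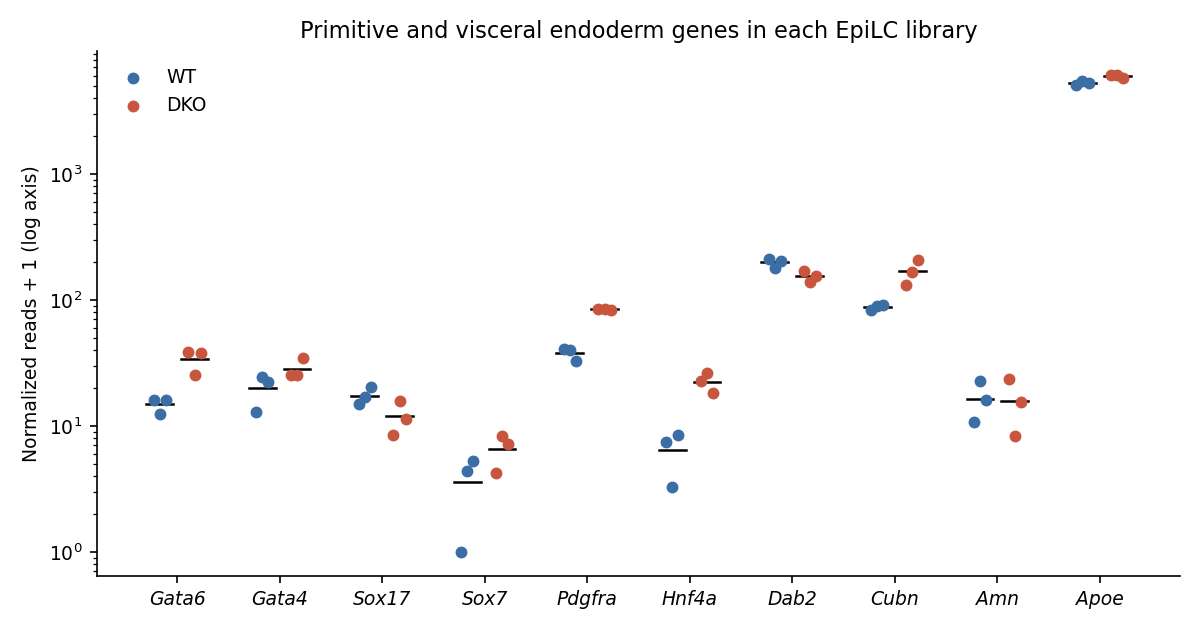
Normalized reads + 1 of each of the 10 genes on a log axis in the 3 WT (blue) and 3 DKO (red) libraries, with 1 point per library and a bar at the group mean. The points of Pdgfra, Hnf4a, Gata6 and Cubn are separated between genotypes, those of Sox17, Sox7 and Amn overlap, and those of Gata4, Dab2 and Apoe are apart by small gaps.

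Pdgfra, the receptor for PDGF ligands that marks the primitive endoderm (NM_011058, chromosome 5, 75152306 to 75198215, plus strand), had 39.8, 38.7 and 32.0 normalized reads in WT. The DKO libraries had 84.0, 84.1 and 81.9, so all were at least 2.06 times the highest WT value and lay within a narrow band. The SD was 11.4% of the mean in WT and 1.46% in DKO. On the log2 scale the difference was 1.16 ± 0.15 (95% interval 0.84 to 1.48, limma adjusted p = 3.02e-07), and it was called in each of the 17 alternatives. Mir7025, a microRNA gene inside the Pdgfra body, had at most 1.56 normalized reads in any library.

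Of the PDGF ligands and receptors, Pdgfa rose with its receptor. Pdgfa, a ligand of Pdgfra, had 240, 260 and 272 normalized reads in WT and 988, 1033 and 977 in DKO (log2 fold change 1.96 ± 0.06, limma adjusted p = 5.35e-21). All its DKO values were above all its WT values. Pdgfrb, the sister receptor, was at 43.2 ± 7.05 in WT and 46.3 ± 3.98 in DKO and was not called. Pdgfc, another ligand of Pdgfra, had a log2 fold change of -0.28 ± 0.05, under the fold-change threshold. Over 14 family relatives of the members (among them Gata factors and their cofactors, Sox18, PDGF ligands and receptors, and Hnf4g), 12 were tested, of which 3 were higher (Gata3, Gata2 and Pdgfa) and 0 lower, with a median log2 fold change of 0.07. Gata2 and Gata3 are trophoblast factors and were named by the study from these libraries, so they are not independent evidence of a direction. Gata1, an erythroid factor, was at 30.2 ± 8.35 in WT and 34.3 ± 0.68 in DKO.

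The endocytic genes of the visceral endoderm differed from each other. Cubn, which encodes the multiligand receptor cubilin (NM_001081084, chromosome 2, 13276338 to 13491813, minus strand), had 82.2, 87.6 and 90.1 normalized reads in WT and 130, 167 and 207 in DKO. The DKO values were all above the WT values and spread more widely, with an SD of 4.69% of the mean in WT against 23.0% in DKO. The log2 fold change was 0.92 ± 0.13 (95% interval 0.65 to 1.19, limma adjusted p = 8.28e-07). An antisense gene, Gm13270, spans 23.0% of the Cubn body. Whether counting used strand is not given in the sources used here, so reads of the antisense gene cannot be told apart from those of Cubn. The same limit holds for Sox17, where Gm37587 spans 13.5% of the body, and Dab2, where Gm16311 spans 4.73%. It also holds for the opposite-strand genes of Pdgfra.

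Amn encodes amnionless, the membrane anchor with which cubilin forms its receptor complex (NM_033603, chromosome 12, 111271095 to 111276426, plus strand). It had 9.67, 21.6 and 14.9 normalized reads in WT and 22.6, 7.36 and 14.5 in DKO, so the groups overlapped over nearly their whole ranges. The log2 fold change was -0.11 ± 0.35 (95% interval -0.82 to 0.60, limma adjusted p = 0.805), an interval that includes changes of 1.5-fold in either direction.

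Dab2, the clathrin adaptor that links these receptors to the endocytic machinery (NM_001008702, chromosome 15, 6299788 to 6440712, plus strand), had 212, 179 and 204 normalized reads in WT and 167, 139 and 154 in DKO. All DKO values were below all WT values. The difference of -0.37 ± 0.10 on the log2 scale (limma adjusted p = 0.00238) was under the fold-change threshold, and no fit that left out a library called it.

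Lrp2, or megalin, the large receptor that works with cubilin, had 10810, 10370 and 11500 normalized reads in WT and 15630, 16010 and 18110 in DKO. All DKO libraries exceeded all WT libraries, and the gene was higher (log2 fold change 0.60 ± 0.04, limma adjusted p = 8.90e-14). Lrpap1, the chaperone of Lrp2 and related receptors, had a log2 fold change of 0.50 ± 0.03, under the fold-change threshold. Of 10 genes of endocytic receptor partners, all tested, 1 was higher (Lrp2) and 2 were lower. Vldlr, the very-low-density lipoprotein receptor, fell from 180 to 42.0 normalized reads (-2.08 ± 0.13 on the log2 scale) and Lrp8, the apolipoprotein E receptor 2, from 1431 to 849 (-0.75 ± 0.04). The median of these 10 genes was -0.01.

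**Figure D4:**
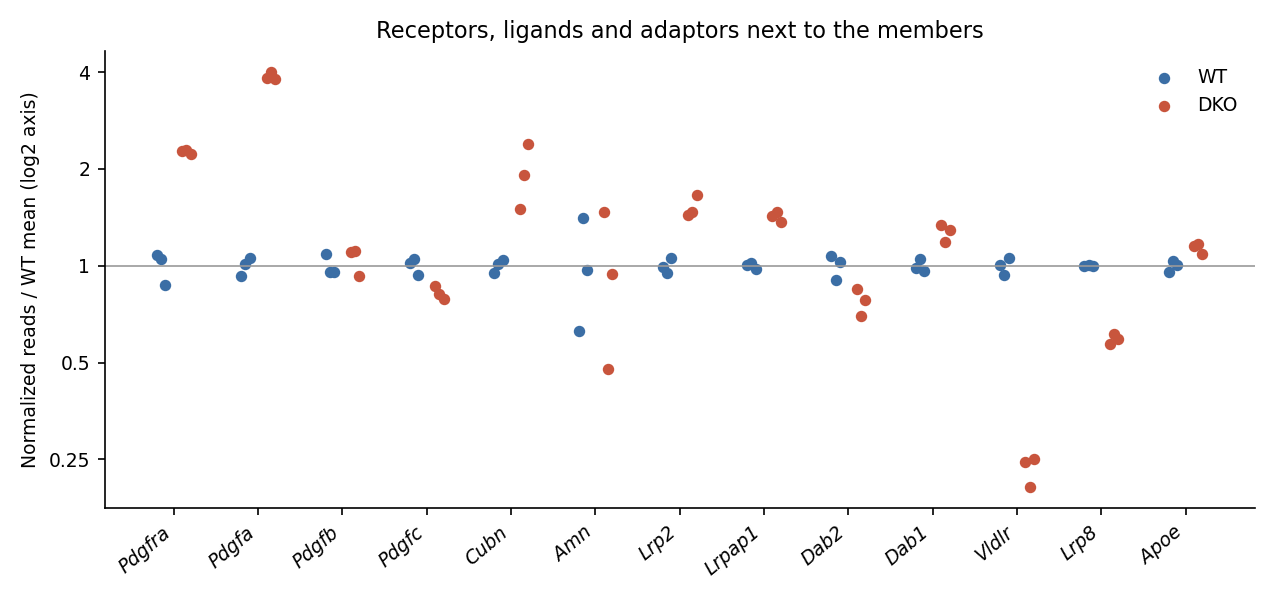
Normalized reads of 5 members and of genes that work with them, divided by the WT mean of the gene (log2 axis), with 1 point per WT (blue) or DKO (red) library. The DKO points of Pdgfra, Pdgfa, Cubn and Lrp2 are above the WT points, those of Vldlr and Lrp8 are below, and those of Amn overlap.

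Apoe, the apolipoprotein E gene (NM_009696, chromosome 7, 19696109 to 19699188, minus strand), had 5042, 5443 and 5307 normalized reads in WT and 6060, 6139 and 5734 in DKO. Every DKO value was above every WT value, with the lowest DKO value 1.05 times the highest WT value. The log2 fold change was 0.18 ± 0.03 (limma adjusted p = 1.16e-05), a difference larger than the spread between replicates and under the fold-change threshold. Apoe was thus abundant in both genotypes.

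Promoter windows from the RefSeq table of GRCm38.p6 promoters are printed for 3 genes called higher (Pdgfra, Cubn and Hnf4a, the last with 2 annotated starts). The upstream window of Dab2, which was not called, is also printed because it holds 2 GATA matches. A window runs from 250 bases before to 50 bases after the start, 5′ to 3′ on the strand of the gene. Capitals mark GATA sites, which are the letters GATA with A or T before and A or G after them, and CAGAC, a core of Smad3/4 elements, each on either strand.
Pdgfra (chr5:75152001-75152300, plus strand): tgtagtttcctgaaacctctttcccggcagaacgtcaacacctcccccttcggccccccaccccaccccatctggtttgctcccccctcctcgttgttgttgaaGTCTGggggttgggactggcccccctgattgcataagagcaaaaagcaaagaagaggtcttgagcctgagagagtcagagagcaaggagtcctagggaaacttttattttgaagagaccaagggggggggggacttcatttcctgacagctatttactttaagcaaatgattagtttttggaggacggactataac
Cubn (chr2:13491827-13492126, minus strand): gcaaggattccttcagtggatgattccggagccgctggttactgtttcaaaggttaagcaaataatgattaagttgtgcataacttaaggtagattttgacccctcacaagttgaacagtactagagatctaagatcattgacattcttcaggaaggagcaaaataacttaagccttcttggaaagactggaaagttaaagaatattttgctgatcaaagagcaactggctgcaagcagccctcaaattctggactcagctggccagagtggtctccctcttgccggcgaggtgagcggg
Hnf4a, upstream start (chr2:163506607-163506906, plus strand): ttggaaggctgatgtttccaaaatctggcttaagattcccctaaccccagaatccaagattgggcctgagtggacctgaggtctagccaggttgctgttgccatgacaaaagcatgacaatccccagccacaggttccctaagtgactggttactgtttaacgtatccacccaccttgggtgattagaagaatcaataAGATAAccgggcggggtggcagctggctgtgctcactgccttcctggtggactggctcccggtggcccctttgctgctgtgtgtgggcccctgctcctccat
Hnf4a, downstream start (chr2:163546905-163547204, plus strand): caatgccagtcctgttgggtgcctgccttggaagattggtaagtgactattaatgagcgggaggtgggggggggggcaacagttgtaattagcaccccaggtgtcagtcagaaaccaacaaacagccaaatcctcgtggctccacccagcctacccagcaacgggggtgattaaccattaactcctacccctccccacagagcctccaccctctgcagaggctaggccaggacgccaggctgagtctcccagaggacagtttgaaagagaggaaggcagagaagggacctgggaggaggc
Dab2, upstream start (chr15:6299539-6299838, plus strand): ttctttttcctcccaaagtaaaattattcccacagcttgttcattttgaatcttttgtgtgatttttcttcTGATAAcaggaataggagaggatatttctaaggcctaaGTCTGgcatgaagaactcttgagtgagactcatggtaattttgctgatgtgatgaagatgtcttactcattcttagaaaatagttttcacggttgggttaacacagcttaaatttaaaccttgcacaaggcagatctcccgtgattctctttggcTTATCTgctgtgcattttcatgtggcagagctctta

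The Pdgfra window holds 1 CAGAC on the opposite strand, at position -146 from the start, and no GATA site. Neither the Cubn window nor the downstream Hnf4a window, whose start is nearest to the counted entry, holds a match of either kind. The upstream Hnf4a window has 1 GATA site at position -52. In all, windows of 6 of the 10 genes were searched, 10 windows together, some of them overlapping. A GATA site was present in 3 of these 10 windows and in 29.8% of all 32851 promoters of the table, and CAGAC in 5 of 10 and 49.6%. GGCGCC, a Bmp-type Smad element, was present in 2 of 10 and 11.9%, and AACAAT, a Sox site, in 0 of 10 and 10.7%. No match of one motif shared bases with a match of another in the 10 windows. A match describes letters only, and the lack of one says only that these letters are not in this window. Gata4, Sox17 and Sox7 had no entry. Windows on chromosome 18, where Gata6 lies, were left out of the search for members, so none is given for Gata6.

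Other genes of the endoderm lineages were counted beside the members. Of 10 further primitive endoderm genes, 9 were tested, 4 were higher and 0 lower, with a median log2 fold change of 0.43, and 0 passed the test against a fold change of 1.5. Besides Lrp2 these were Cited1, a transcriptional coregulator (10.1 to 18.7 normalized reads, 0.87 ± 0.31), Fgfr4, a receptor for Fgf ligands (17.5 to 32.2, 0.85 ± 0.23), and Creb3l2, a factor of the secretory pathway (64.5 to 113, 0.81 ± 0.13).

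Of 17 genes of parietal endoderm and its basement membrane, 16 were tested, 4 were higher and 0 lower, with a median of 0.36. Without WT library 3, 7 were called. Krt8, a keratin of simple epithelia, rose from 262 to 818 normalized reads (1.64 ± 0.06), Col4a2, a collagen IV chain, from 202 to 341 (0.75 ± 0.08), and Hspg2, or perlecan, from 3226 to 4944 (0.61 ± 0.04). The fourth, Sparc, was named by the study from these libraries. The laminin chains Lama1, Lamb1 and Lamc1 had log2 fold changes of 0.54, -0.15 and 0.01 and were not called.

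Secretory and transport genes of the visceral endoderm moved in both directions. Of 19 genes, 13 were tested, 3 were higher (H19, Igf2 and Spink1) and 3 lower, with a median of 0.06. H19, an imprinted non-coding RNA, was named by the study from these libraries, and Igf2 is its imprinted neighbour. Spink1, a protease inhibitor, rose from 3.83 to 15.8 normalized reads (1.82 ± 0.38). It had 4, 8 and 9 reads in the WT libraries and passed the filter on low values through its DKO libraries. Trf, the transferrin gene, fell from 360 to 124 (-1.53 ± 0.08), Apob, the main protein of lipoprotein particles, from 126 to 64.5 (-0.95 ± 0.12), and Rbp4, the retinol carrier, from 36.5 to 22.5 (-0.66 ± 0.21). Afp, Apoa1 and Ttr, defining markers of this tissue, were picked as genes at or near 0, so their low values are no test. Mttp of the same list was at 529 ± 18.3 in WT and 508 ± 14.4 in DKO and was not called. Afp had 7.52, 11.4 and 8.53 normalized reads in WT and 5.38, 5.25 and 10.4 in DKO, Apoa1 had 2.68 ± 2.46 and 1.57 ± 0.88, and Ttr had 0.379 ± 0.657 and 0.179 ± 0.311. In addition, 3 of the 19 genes had at most 3 reads in every library.

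Genes of the anterior visceral endoderm and of definitive endoderm, the latter formed at gastrulation, were counted as well. Of 10 anterior visceral endoderm genes, 8 were tested, 0 were higher and 1 was lower (Lefty1, a Nodal inhibitor), with a median of 0.06. Without DKO library 1 the calls were 2. Lefty1 fell from 14270 to 94.9 normalized reads (-7.22 ± 0.05) and was named by the study from these libraries as a Nodal-dependent gene. Of 9 definitive endoderm genes, 8 were tested, 1 was higher (Eomes) and 2 lower, with a median of -0.18. The 2 lower genes were Mixl1, a homeobox factor of the primitive streak, and Cxcr4, a chemokine receptor that fell from 19.3 to 9.25 normalized reads (-1.14 ± 0.35). Foxa2, shared by both lists, was at 14.8 ± 6.61 in WT and 12.0 ± 5.40 in DKO and was not called.

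**Figure D5:**
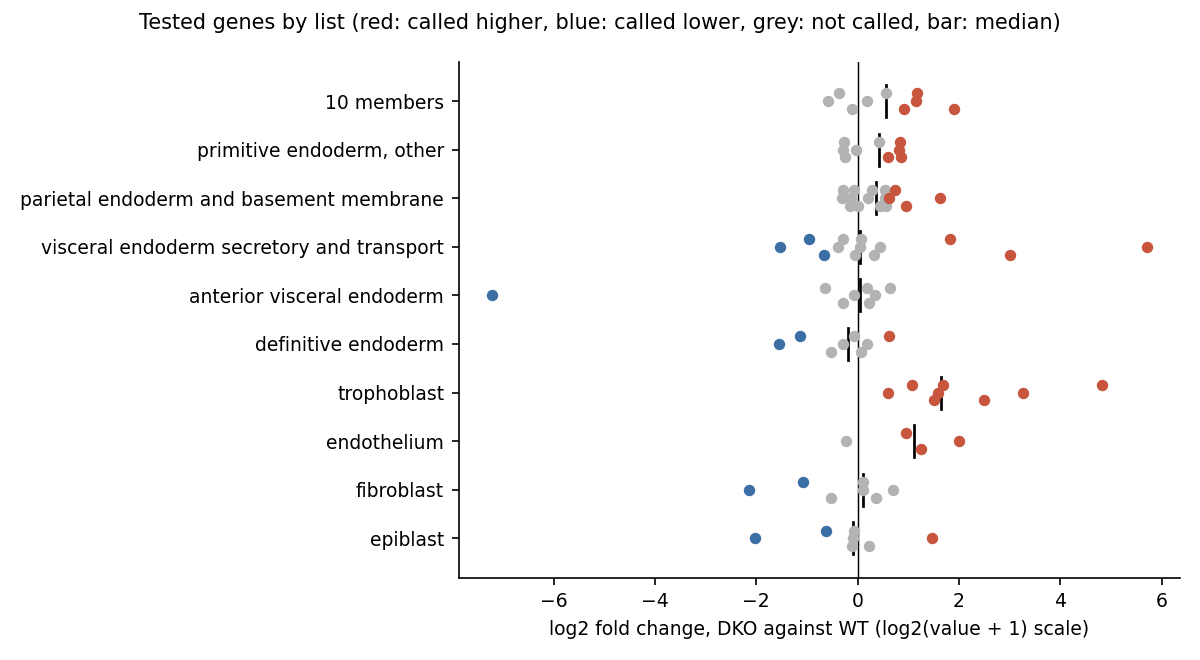
Log2 fold change of every tested gene (DKO against WT, log2(value + 1) scale, limma), 1 row per list, coloured by call, with the list median as a bar. The 10 members, the further primitive endoderm genes and the parietal endoderm list hold 4 red points each and no blue ones, whereas the secretory visceral endoderm list has 3 of each.

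Markers of other cell types moved with genotype as well. All 8 tested trophoblast genes of 9 were higher, although several of them were named by the study from these libraries. Gata2, Gata3, Hand1 and Plac1 had fewer than 10 reads in at least 1 WT library. They passed the filter on low values through their DKO libraries, where they were high. The share of tested genes called higher is therefore partly fixed by the filter. The summed level of the 9 genes was 213 to 230 normalized reads in WT libraries and 812 to 1022 in DKO libraries. Of 10 fibroblast genes, 7 were tested, 0 were higher and 2 lower, with a median of 0.11 and summed levels of 1627 to 1703 in WT and 532 to 579 in DKO. Dcn, a matrix proteoglycan, held most of that sum (1330 to 300). Not called were Col1a1, Col3a1 (0.36 ± 0.27), Col6a1 (0.70 ± 0.45), Thy1 and Pdgfrb, of which Col1a1 was at 21.4 ± 5.12 and 15.0 ± 5.59. The part of these other markers in the values of the 10 genes was not tested.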

How the data were processed

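Total RNA of 3 WT and 3 DKO EpiLC differentiations was depleted of ribosomal RNA, made into stranded libraries and sequenced paired-end over 75 cycles. By the authors' account, reads of ribosomal RNA were filtered out with Bowtie2 and the rest were aligned to mm10 with STAR, rid of duplicates with SAMtools and counted over refGene gene bodies. Tool versions, and whether counting used strand, are not given in the sources used here. Deposited values are a signal for each transcript entry, namely read counts divided by 1 DESeq2 size factor per library, with no length scaling. The authors' comparison table (mean, log2 fold change, standard error, Wald statistic, p-values) was not used.

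Dividing by the smallest step of a library, taken as 1 read, gave whole numbers for 100% of values (within 0.01), with size factors of 1.76 to 1.93. Whether this step is 1 read was not tested. Rows without a symbol (138 of 33812, 0.517% of values) were left out. Positions came from GENCODE vM21 by transcript identifier (97.6% of rows). Entries passing filterByExpr of edgeR (version 4.0.16, minimum count 10) on recovered reads were tested with limma (version 3.58.1, R 4.3.3, variance trend) on log2(value + 1), with Benjamini-Hochberg adjustment over 25361 entries. Fold changes of genes with few reads are understated on this scale. Count tests (edgeR with TMM factors, and DESeq2, version 1.42.0) on recovered reads, other pseudocounts, filters, scalings and thresholds, 1 entry per gene, a replicate block and leaving out each library were alternatives. Low entries often held even numbers of reads, and how pairs were counted is not given in the sources used here. Reads were therefore not taken as independent molecules, and no counting intervals are given. P-values measure the spread between differentiations of 1 line per genotype.

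The 10 genes and all gene lists were chosen with earlier results of these data known, and list counts carry no test. Some listed genes are counted but not reported here by name. Named genes are the members, Smad2, Smad3, epiblast genes used as a level reference, family relatives, overlapping genes, defining markers, and up to 4 called genes of a list with the largest fold changes and a mean of at least 10 normalized reads. Exceptions, named after their values were seen, are Spink1, Rbp4, Mttp, Hand1, Plac1, the laminin chains, Lrpap1, Flt1, Cdh5, Emcn, Col3a1, Col6a1, Thy1 and Foxa2.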

Additional observations from a re-analysis of the deposited data

How the results depend on the processing

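Pdgfra and Hnf4a were called higher under all 17 alternatives, and Gata6 and Cubn under 16, the exception for both being the test against a fold change of 1.5. That test called 2 members higher and 1735 entries in all, 838 higher and 897 lower. Without a fold-change threshold, 1 member (Dab2) was called lower, and 13977 entries were called, 7147 higher and 6830 lower. By the test against 1.5-fold, 0 of the further primitive endoderm genes, 2 of the parietal endoderm list and 5 of the trophoblast list were called. Leaving out 1 library at a time gave 4 to 5 members higher and 0 to 1 lower. The additional calls were Gata4 without WT library 2, Sox7 without WT library 3, and Sox17, lower, without DKO library 2. The log2 fold change of Amn changed sign, from -0.46 to 0.29 over these fits, being positive without WT library 2 (0.15) and without DKO library 2 (0.29), and was never called. Same-numbered WT and DKO libraries did not deviate together (correlations of -0.00788, -0.0252 and 0.00475 over 13071 genes), so the numbers were not taken as pairs. With a replicate block, 4 members were called higher, 0 lower, and 3913 entries in all. Of the member fold changes under alternatives, 145 kept direction and side of the threshold, 4 gained a call, 2 lost one and 2 changed sign. Gata4, Gata6, Sox7, Sox17, Amn and Hnf4a had at most 71 reads in any library, which limits what could be detected for them.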

Other observations

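The endothelial list, which was counted for signs of other cell types, had 3 of 4 tested genes higher and 0 lower. Kdr, a receptor of vascular growth factors that also marks early mesoderm, rose from 10.9 ± 4.60 to 45.3 ± 9.36 normalized reads (log2 fold change 2.01 ± 0.27, limma adjusted p = 2.74e-07). Pecam1, an adhesion molecule that pluripotent cells also express, rose from 963 ± 31.3 to 2301 ± 165 (1.25 ± 0.04), and Tek, the angiopoietin receptor, from 240 ± 6.36 to 469 ± 18.4 (0.96 ± 0.07). Flt1 was not called (-0.24 ± 0.10). Cdh5 and Emcn, also on the list and named after their values were seen, had at most 4 reads in any library and were not tested.

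The recovered read numbers of low entries were more often even than odd. Among entries with 1 to 99 reads, 69.4% to 71.5% were even in each library, and among those with 1000 reads or more 52.5% to 53.1% were. Sox7, Sox17, Amn and Pdgfra had even numbers in all 6 libraries, and Cubn in 1.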
